A study of Mus musculus with 36 samples.

Results

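Microglia are the resident macrophages of the brain, and 35 genes that these cells express strongly were followed through arrays labelled cortex, hypothalamus and hippocampus, from mice with a conditional deletion of Dicer in neurons. The 35 genes were found by their symbols among the 18193 genes with a probe set annotated to a single gene. Where a gene had several such probe sets, the one with the highest mean in the tissue was taken. Dicer is the enzyme that cuts miRNA precursors into mature miRNAs. Tissue came from Camk2a-CreERT2; Dicer lox/lox mice on a C57BL/6J background, injected on 5 consecutive days at 8 weeks of age with either tamoxifen (cKO, 10 mg in all) or the sunflower oil and ethanol vehicle (control). cKO and control mice carried the same alleles, so that deletion and tamoxifen itself cannot be told apart. The Camk2a promoter drives the Cre recombinase in forebrain neurons, and deletion was therefore directed to neurons and not to microglia. Animals were taken 8 weeks and 4 weeks after the injections. Each of the 12 groups had 3 animals with 1 array each, 36 arrays in all. By the animal numbers in the labels, 11 mice gave both a cortex and a hypothalamus array, including all 6 cKO mice used for these tissues, and the arrays labelled hippocampus came from other mice.

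Microglia arise from yolk sac progenitors, enter the brain before birth and depend on the transcription factor PU.1 (Spi1) and on the growth factor receptor Csf1r. In the resting brain they are recognised by surface proteins such as Tmem119 and P2ry12, and they survey tissue through receptors for nucleotides, chemokines and antibody-bound targets. They also make the C1q chains that start the classical complement cascade and tag material for removal. When microglia are activated they take on more phagocytic, lysosomal and antigen-presenting proteins. In bulk tissue, fewer cells of a type and less RNA per cell cannot be told apart.

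The array values are log2 intensities that the authors normalised within each tissue. Levels of the microglia genes are therefore compared only between arrays of 1 tissue and for 1 gene at a time. The tissue markers below are the exception, and only large gaps between tissues can be read from them. A gene was tested where its mean over the 12 arrays of the tissue was at least 4.5. All 35 microglia genes passed this limit in the hypothalamus and 34 passed in the cortex and in the arrays labelled hippocampus, where Itgam was below it with means of 3.46 and 3.69. The array medians lay between 6.33 and 6.35 in the hypothalamus, 5.25 and 5.39 in the cortex, and 5.77 and 5.81 in the arrays labelled hippocampus. Dicer1 itself did not separate the groups: at 8 weeks its level was 9.02, 9.11 and 9.19 in the 3 cKO hypothalami, against 9.22, 9.20 and 9.19 in the 3 control hypothalami (difference -0.09, SE 0.06, adjusted p = 0.81), and its difference lay between -0.03 and 0.10 in the other 5 pairs of groups. The deletion removes a single exon, and the position of this probe set relative to it was not analysed here, so its level does not check the labels.

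Markers of the tissues, chosen after their values were seen, went against 1 of the 3 tissue labels. Slc17a7, the vesicular glutamate transporter of cortical and hippocampal neurons, was between 9.19 and 9.52 in the cortex and between 4.41 and 4.79 in the hypothalamus. In 11 of the 12 arrays labelled hippocampus it was between 3.74 and 4.41, and in cKO replicate 1 of 8 weeks it was 7.56. Neurod6, a transcription factor of the same neurons, was between 2.68 and 3.31 in these 11 arrays and 9.05 in the other one. Dsp, a desmosomal protein known from the dentate gyrus of the hippocampus, was between 3.24 and 3.69 in the 11 arrays and 8.11 in the other one. Thus 11 arrays lacked markers that define the hippocampus, and cKO replicate 1 of 8 weeks stood apart from them. In that array Camk2a, whose promoter drives the Cre, was at 11.81, against 9.78 to 10.51 in the 11 others. The tissue of these 12 arrays is therefore given only as a label. For comparisons that use the 8-week cKO arrays, the number of microglia genes that passed is also given without cKO replicate 1. Pmch, a peptide gene of the lateral hypothalamus, was between 13.27 and 13.59 in the hypothalamus arrays and at most 6.05 in the others. Slc17a6, a marker of subcortical excitatory neurons, was between 10.87 and 11.38 in the 11 arrays labelled hippocampus and 10.55 in cKO replicate 1. It was between 10.99 and 11.45 in the hypothalamus and between 6.60 and 7.74 in the cortex.

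Because microglial promoters are known for sites of PU.1, the 250 bases before the start of each gene were searched in RefSeq's mouse sequence (GRCm38.p6). An entry was found for 25 of the 35 genes. The promoters of the 3 genes with the largest and the 3 with the smallest hypothalamic difference at 8 weeks among these 25 are shown, so that the sequence can be read beside the size of the difference given further on. Each runs 5′ to 3′ on the minus strand, and capitals mark the core of the PU.1 site, GAGGAA, or TTCCTC where it lies on the opposite strand.
C1qb (chr4:136886201-136886450, minus strand): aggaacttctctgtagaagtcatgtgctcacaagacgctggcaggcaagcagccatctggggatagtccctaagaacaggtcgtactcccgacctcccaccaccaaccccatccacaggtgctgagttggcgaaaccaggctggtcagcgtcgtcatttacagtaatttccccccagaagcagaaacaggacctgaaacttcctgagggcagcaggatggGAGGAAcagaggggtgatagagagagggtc
C1qc (chr4:136892915-136893164, minus strand): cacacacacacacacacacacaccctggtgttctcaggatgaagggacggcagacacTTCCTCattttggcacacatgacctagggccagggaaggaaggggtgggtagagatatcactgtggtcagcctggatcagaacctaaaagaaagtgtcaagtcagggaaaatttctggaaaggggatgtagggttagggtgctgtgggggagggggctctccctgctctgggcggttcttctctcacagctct
Cd68 (chr11:69666171-69666420, minus strand): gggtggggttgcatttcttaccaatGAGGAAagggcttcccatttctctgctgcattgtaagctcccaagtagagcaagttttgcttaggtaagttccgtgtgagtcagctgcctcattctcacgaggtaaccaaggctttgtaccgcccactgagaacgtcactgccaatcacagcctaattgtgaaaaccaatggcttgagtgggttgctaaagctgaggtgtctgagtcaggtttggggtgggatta
Fcgr2b (chr1:170976072-170976321, minus strand): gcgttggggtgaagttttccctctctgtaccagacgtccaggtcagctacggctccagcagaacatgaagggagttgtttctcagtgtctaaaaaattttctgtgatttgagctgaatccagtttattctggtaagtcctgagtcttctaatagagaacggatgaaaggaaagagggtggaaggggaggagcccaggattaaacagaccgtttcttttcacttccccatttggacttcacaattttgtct
P2ry12 (chr3:59262986-59263235, minus strand): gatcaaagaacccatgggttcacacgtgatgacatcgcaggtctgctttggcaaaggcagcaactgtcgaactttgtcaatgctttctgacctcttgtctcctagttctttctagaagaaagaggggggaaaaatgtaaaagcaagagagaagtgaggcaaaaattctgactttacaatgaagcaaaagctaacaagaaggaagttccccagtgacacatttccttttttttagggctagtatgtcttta
P2ry13 (chr3:59210883-59211132, minus strand): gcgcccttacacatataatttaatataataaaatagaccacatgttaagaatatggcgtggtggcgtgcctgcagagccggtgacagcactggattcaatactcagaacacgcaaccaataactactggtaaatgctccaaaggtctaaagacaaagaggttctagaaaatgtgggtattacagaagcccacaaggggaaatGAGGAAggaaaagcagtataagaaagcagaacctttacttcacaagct

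GAGGAA, searched on both strands, was present for 15 of the 25 genes (60%), against 23.3% of all 32851 promoter entries of that length. A microglia gene counted where any of its entries held the letters, while the background counts single entries. The shares given here are therefore in unlike units, which can raise that of the microglia genes. It lay 30 bases before the start in C1qb, 193 bases in C1qc, 225 bases in Cd68 and 48 bases in P2ry13, and was not found in the windows of Fcgr2b and P2ry12. Thus the letters occurred both in a gene of large difference and in the gene of the smallest one. A longer form, GAGGAAGT, which contains the first, was in 1 of the 25 (C1qc, 4%), against 2.44% of all promoters. TATAAA was in 5 of the 25 (20%) and 12.4% of all, and TGACTCA, the AP-1 site, in 1 of the 25 and 4.46% of all. Such matches describe the letters only, and the array data do not show what binds there.

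In the hypothalamus at 8 weeks, all 35 microglia genes had a higher mean in cKO than in control mice. The difference was between 0.13 (P2ry13) and 2.52 (Cd52) on the log2 scale, with a median of 1.14, which is a 2.20-fold level, against a median of -0.01 over the 15517 genes tested. None of the 35 passed a false discovery rate (FDR) of 15% by limma, nor did any of the other genes (0%), the lowest adjusted p of the list being 0.384. At an unadjusted p under 0.05, 32 of the 35 were higher and 0 lower, where 4.45% of all genes were higher. In 11 of the 35 every cKO array was above every control array, which held for 5.27% of all genes. With 3 animals against 3 the smallest two-sided exact permutation p is 0.1.

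The 3 cKO hypothalami were not alike. The median deviation of the 35 genes from their own means over the 12 hypothalamus arrays was 1.54, 1.14 and -0.15 in cKO mice 1, 2 and 3, against -0.16, -0.40 and -0.21 in the 3 controls of the same time. cKO mice 1 and 2 each lay above all 3 controls for 34 of the 35 genes. cKO mouse 3 lay above them for 11, within their range for 20 and below them for 4, and it was the lowest of the 3 cKO mice for all 35. The 6 arrays of 4 weeks lay between -0.38 and -0.15, close to the 8-week controls.

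**Figure D1:**
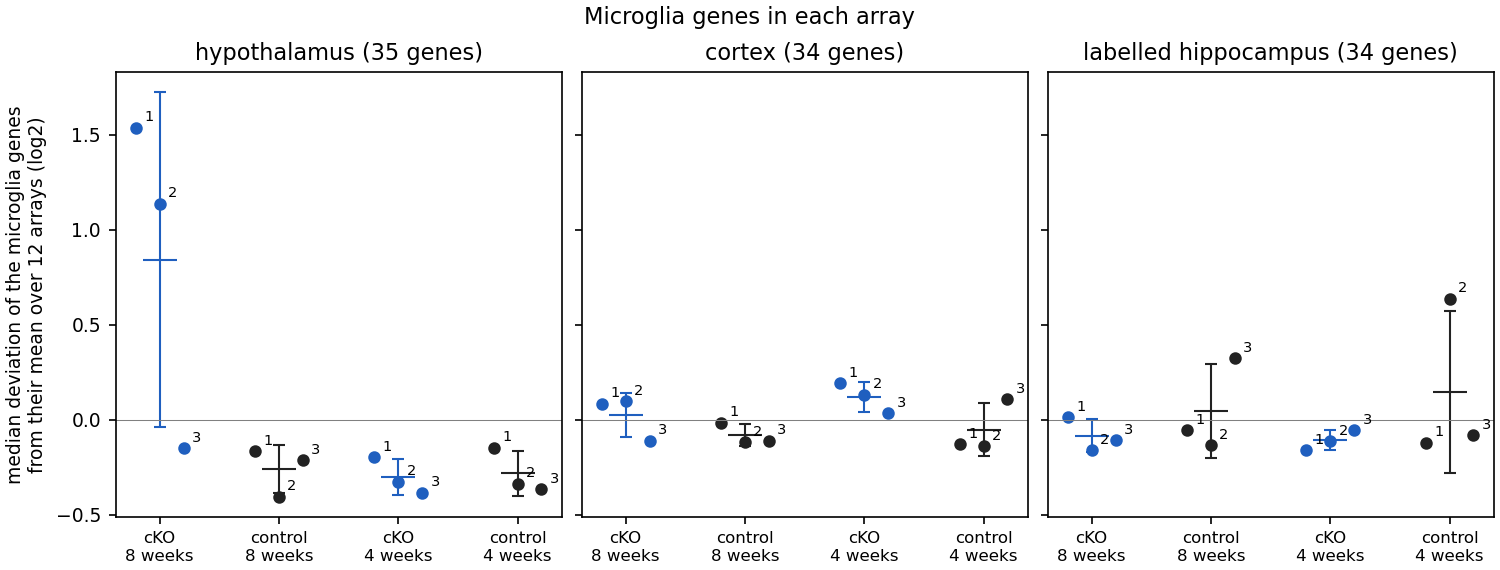
Median deviation of the microglia genes (log2, vertical axis) from each gene's mean over the 12 arrays of a tissue, one point per array with its replicate number, for the cKO (blue) and control (black) groups at 8 and 4 weeks; horizontal marks are group means and bars the SD (n = 3). Hypothalamus cKO arrays 1 and 2 at 8 weeks stand at 1.54 and 1.14 and cKO array 3 at -0.15, and among the arrays labelled hippocampus the highest is a control, at 0.64.

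The size of the pooled difference therefore depended on single mice. Each array was left out in turn. Without cKO mouse 3 of 8 weeks, 33 of the 35 genes passed the FDR of 15% (lowest adjusted p = 8.02e-06, 598 genes called in all), with a median difference of 1.65, and the exceptions were P2ry12 and P2ry13. Without cKO mouse 1 or cKO mouse 2, 0 passed and the median was 0.76 and 0.97. A fit that weights each array by its noise (array weights) called 31 of the 35 (663 genes in all). These counts rest on the spread within the groups, and the result stated first is that of all 12 arrays.

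The C1q chains were among the genes of largest difference. They are the 3 subunits of the protein that opens the classical complement pathway. C1qa, the A chain, was at 12.49, 11.83 and 10.15 in cKO mice, against 9.99, 9.72 and 9.82 in controls. All 3 cKO values were above the controls, that of cKO mouse 3 by a small margin. The difference was 1.65 (SE 0.42, adjusted p = 0.384). C1qb and C1qc differed by 1.72 and 1.61, and C1qc also had no overlap between the groups.

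Immune receptors and their adaptors pass signals from antibody complexes and lipids into the cell. Fcgr3, an activating receptor for the constant part of IgG, was at 9.84, 9.42 and 7.94 in cKO mice and at 7.78, 7.44 and 7.78 in controls. Its groups did not overlap, and the difference was 1.40 (SE 0.36, adjusted p = 0.384). Tyrobp, the adaptor also called DAP12, differed by 1.73, Fcer1g, the common Fc receptor gamma chain, by 1.37, and Trem2, the lipid receptor that signals through Tyrobp, by 1.35, each with cKO mouse 3 inside the range of the controls. Another probe set of Trem2, with a lower mean of 5.29, differed by 0.08. Fcgr2b, the inhibitory IgG receptor, differed by 0.36 with the probe set used, which had the highest mean. Its 3 other probe sets with a mean of at least 4.5 differed by 1.45, 1.95 and 1.22, so that its low place among the members depended on the probe set.

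Receptors for growth factors and chemokines had smaller differences. Csf1r, the receptor for CSF1 and IL-34 on which microglia depend for survival, was at 12.35, 12.01 and 11.26 in cKO mice, against 11.22, 11.06 and 11.31 in controls, a difference of 0.68 (SE 0.20, adjusted p = 0.398). The value of cKO mouse 3 lay between the controls. Cx3cr1, the receptor for the neuronal chemokine fractalkine, differed by 0.72 and Csf3r, the G-CSF receptor, by 0.48.

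The receptors for nucleotides and lysophospholipids held the smallest differences of the list. P2ry6, a UDP receptor of phagocytosis, was at 7.67, 7.12 and 5.60 in cKO mice and at 5.70, 5.45 and 5.57 in controls (difference 1.22, SE 0.37, adjusted p = 0.410). P2ry13, an ADP receptor, was at 7.36, 7.18 and 6.91 in cKO mice and at 7.10, 7.01 and 6.94 in controls (difference 0.13, SE 0.10, adjusted p = 0.856). In both genes cKO mouse 3 was within or below the controls. P2ry12, the ADP receptor by which resting microglia extend their processes, was at 7.97, 8.08 and 7.79 in cKO mice, against 8.08, 7.35 and 7.94 in controls (difference 0.16, SE 0.20, adjusted p = 0.946). Its groups overlapped throughout, and its difference was -0.062 when control mouse 2 of 8 weeks was left out. Gpr34, a lysophosphatidylserine receptor, differed by 0.66.

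**Figure D2:**
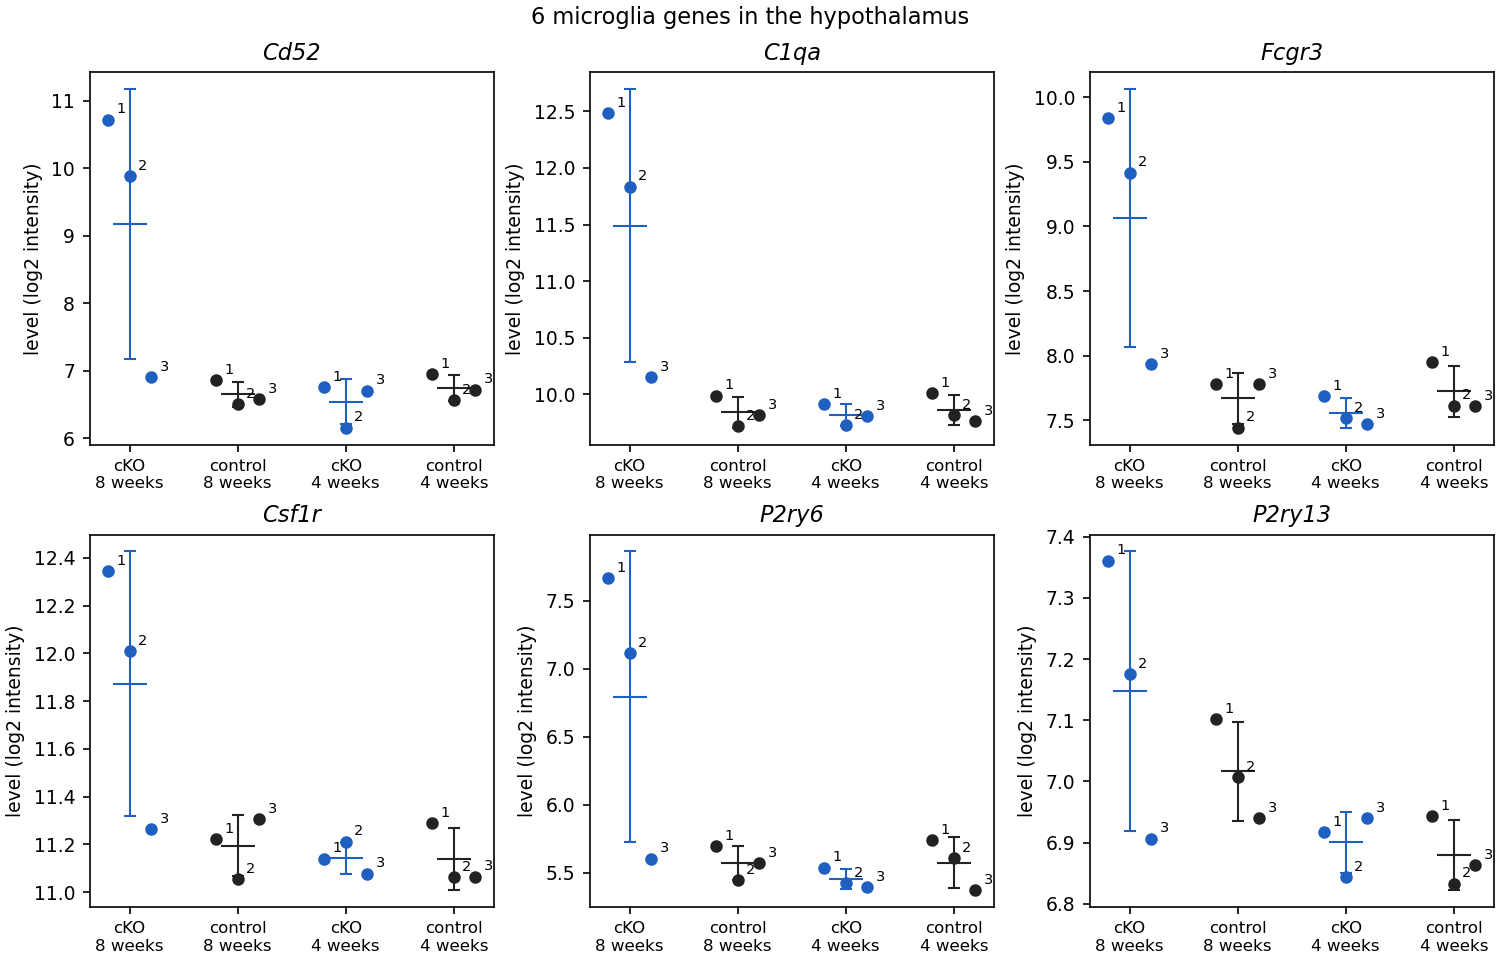
Level of 6 microglia genes (log2 intensity, vertical axes differ and do not start at 0) in the hypothalamus, one point per array with its replicate number, for the cKO (blue) and control (black) groups at 8 and 4 weeks, with group means and SD (n = 3). Cd52, C1qa, Fcgr3, Csf1r and P2ry6 show cKO mice 1 and 2 of 8 weeks well above the other 10 arrays, and P2ry13 a much smaller gap (7.36 in cKO mouse 1 and 7.10 in the highest control of that time).

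Among other surface and secreted proteins, Olfml3, a secreted olfactomedin-like protein, had the lowest p of all 35 genes. It was at 9.36, 9.00 and 8.64 in cKO mice, against 8.22, 8.12 and 8.38 in controls, with a difference of 0.76 (SE 0.18, adjusted p = 0.384). Here cKO mouse 3 was also above all controls. Fcrls, an Fc receptor-like protein of mouse microglia, differed by 1.14, Siglech, a sialic acid-binding lectin, by 0.51, Slco2b1, an organic anion transporter, by 0.50, and Selplg, the selectin ligand PSGL-1, by 0.34. Tmem119, the marker that separates microglia from other macrophages, differed by 0.20 (SE 0.09), the smallest of the list after P2ry13 and P2ry12.

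Integrins and leukocyte membrane proteins held the gene of the largest difference. Cd52, a short glycosylated surface peptide of leukocytes, was at 10.72, 9.88 and 6.91 in cKO mice and at 6.86, 6.51 and 6.58 in controls, a 5.74-fold higher mean (2.52, SE 0.70, adjusted p = 0.384). cKO mouse 3 exceeded the highest control by less than the controls differed among themselves. Ptprc, the CD45 phosphatase of all leukocytes, was at 8.79, 8.35 and 6.62 in cKO mice and at 6.36, 6.05 and 6.55 in controls (difference 1.60, SE 0.41, adjusted p = 0.384). Ly86 (MD-1, a partner of the receptor RP105), Itgb2 (the beta 2 integrin chain), Cd53 (a tetraspanin) and Laptm5 (a lysosomal membrane protein) differed by 1.39, 1.25, 1.08 and 0.95. Itgam, the CD11b chain that pairs with Itgb2, differed by 0.53 and was not below an unadjusted p of 0.05.

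The genes of the lysosome, phagosome and cytoskeleton differed by 1.05 to 1.60. Ctsz, a lysosomal cathepsin, was at 11.51, 11.06 and 10.04 in cKO mice, against 9.80, 9.75 and 9.89 in controls, and the groups did not overlap (difference 1.05, SE 0.27, adjusted p = 0.384). Cd68, a lysosomal membrane protein of phagocytes, was at 9.28, 8.77 and 6.77 in cKO mice and at 6.81, 6.47 and 6.72 in controls (difference 1.60, SE 0.46, adjusted p = 0.389). cKO mouse 3 lay among the controls. Mpeg1, a pore-forming protein of macrophages, Aif1, the actin-binding protein known as IBA1, and Ctss, a cathepsin that trims the MHC class II invariant chain, differed by 1.52, 1.33 and 1.16.

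Both transcription factors of the list were higher. Irf8, which works with PU.1 in the macrophage lineage, was at 7.97, 7.17 and 5.82 in cKO mice, against 5.66, 5.73 and 5.75 in controls (difference 1.27, SE 0.39, adjusted p = 0.410). All cKO values were above the controls. Spi1, which encodes PU.1, differed by 0.52. Over the 35 genes cKO mouse 3 deviated from the control mean by -0.28 to 0.40, against 0.18 to 4.07 for cKO mouse 1 and 0.16 to 3.23 for cKO mouse 2.

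**Figure D3:**
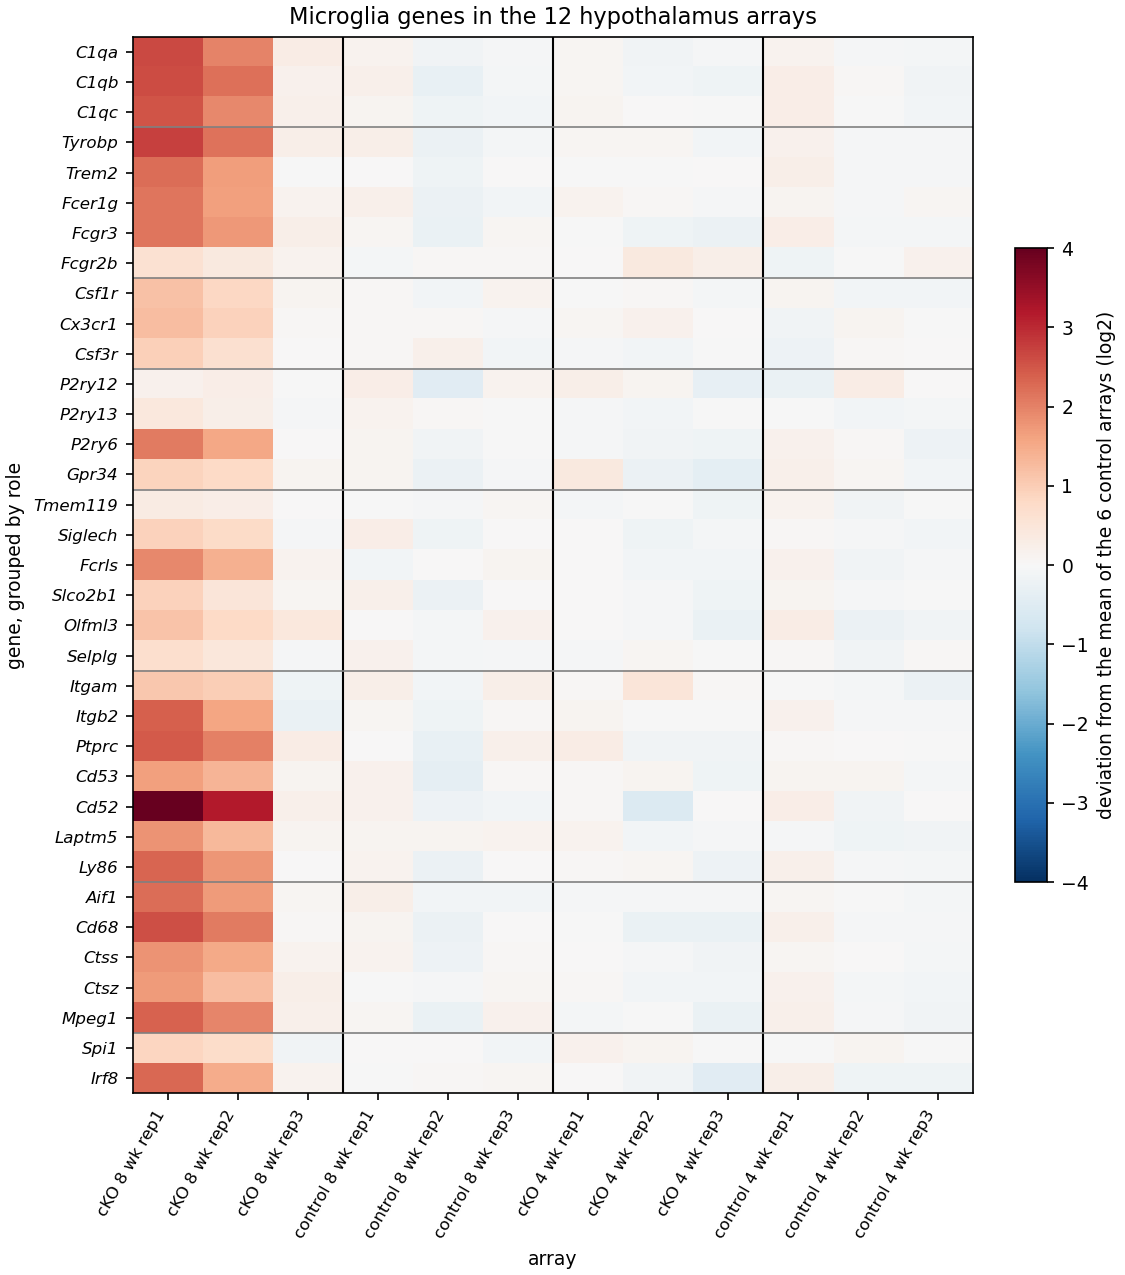
Deviation of each microglia gene (rows, grouped by role) in each hypothalamus array (columns) from the mean of the 6 control arrays, in log2 units, red for higher and blue for lower. Columns of cKO mice 1 and 2 at 8 weeks are red in nearly every row, with Cd52 the deepest and P2ry12 among the palest, and the column of cKO mouse 3 is near the colour of the controls.

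At 4 weeks the hypothalamus showed no such difference. Of the 35 genes, 9 were higher and 26 lower in cKO than in control mice, between -0.21 (Cd68) and 0.31 (Itgam), with a median of -0.05 against -0.02 over all genes. None passed the FDR by limma, where 0% of all genes did, and 0 had an unadjusted p under 0.05. In the cKO mice of 8 weeks against those of 4 weeks, all 35 genes were higher, with a median of 1.21. By limma 0 of them passed (0% of all genes, lowest adjusted p = 0.216), while 31 had an unadjusted p under 0.05, where 5.74% of all genes were higher at that level. Olfml3 differed by 0.88 (SE 0.18, adjusted p = 0.216) in that comparison. In control mice of 8 weeks against those of 4 weeks, 0 passed (0% of all genes), 0 had an unadjusted p under 0.05, and the differences lay between -0.12 and 0.23.

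The difference between times was tested itself. The cKO minus control difference was greater at 8 weeks than at 4 weeks for all 35 genes, by 0.11 to 2.72 with a median of 1.20, against 0.01 over all genes. For Cd52 this was 2.72 (SE 0.99), for C1qb 1.85 (SE 0.65) and for Cd68 1.82 (SE 0.65). By limma 0 passed (0% of all genes, adjusted p = 0.999 for every member), and 24 had an unadjusted p under 0.05, where 3.42% of all genes were higher at that level. Without cKO mouse 3 of 8 weeks, 30 of the 35 passed. The count over all genes is not given for that fit, and in the 8-week comparison the same omission called 598 genes.

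**Figure D4:**
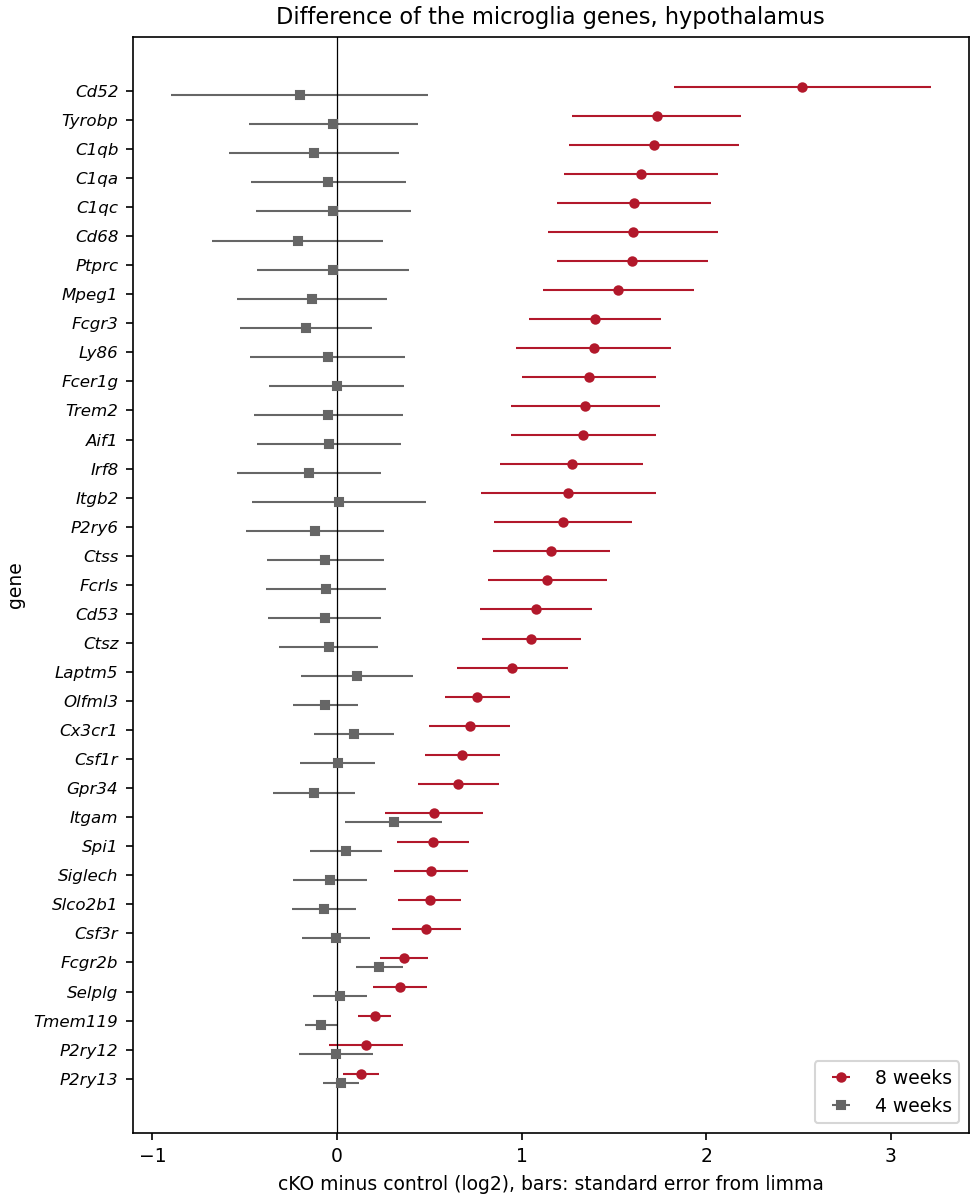
Difference of each microglia gene between cKO and control hypothalami (log2, horizontal axis) at 8 weeks (red circles) and 4 weeks (grey squares), with standard errors from limma, ordered by the 8-week value. The 8-week differences run between 0.13 and 2.52 and those of 4 weeks between -0.21 and 0.31.

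The cortex of the same 8-week mice differed far less. The median deviation over 34 genes was 0.08, 0.10 and -0.11 in cKO mice 1, 2 and 3, against -0.01, -0.12 and -0.11 in controls, so that cKO mice 1 and 2 were again the highest of the 6. The median difference was 0.10 (range -0.32 for Laptm5 to 0.47 for Cx3cr1) against 0.00 over all genes. By limma 0 of the 34 passed (0% of 13488 genes), and 3 had an unadjusted p under 0.05, Ly86 (0.36), Tyrobp (0.40) and Trem2 (0.37), where 2.78% of all genes were higher at that level. The groups did not overlap for 3 genes, P2ry6, Itgb2 and Ly86, against 7.24% of all genes. The difference of the 2 tissues was tested over all 36 arrays with the animal as a random block and with the probe set of the highest mean over these 36 arrays, which for Slco2b1 was another one than above (0.19 in the hypothalamus). It was positive for each of the 34 genes, between 0.16 (Slco2b1) and 2.33 (Cd52). By limma 0 passed (0% of all genes), and 28 had an unadjusted p under 0.05, where 3.84% of all genes were higher at that level. Without hypothalamus cKO mouse 3 of 8 weeks, 27 of the 34 passed, a count given without that over all genes.

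**Figure D5:**
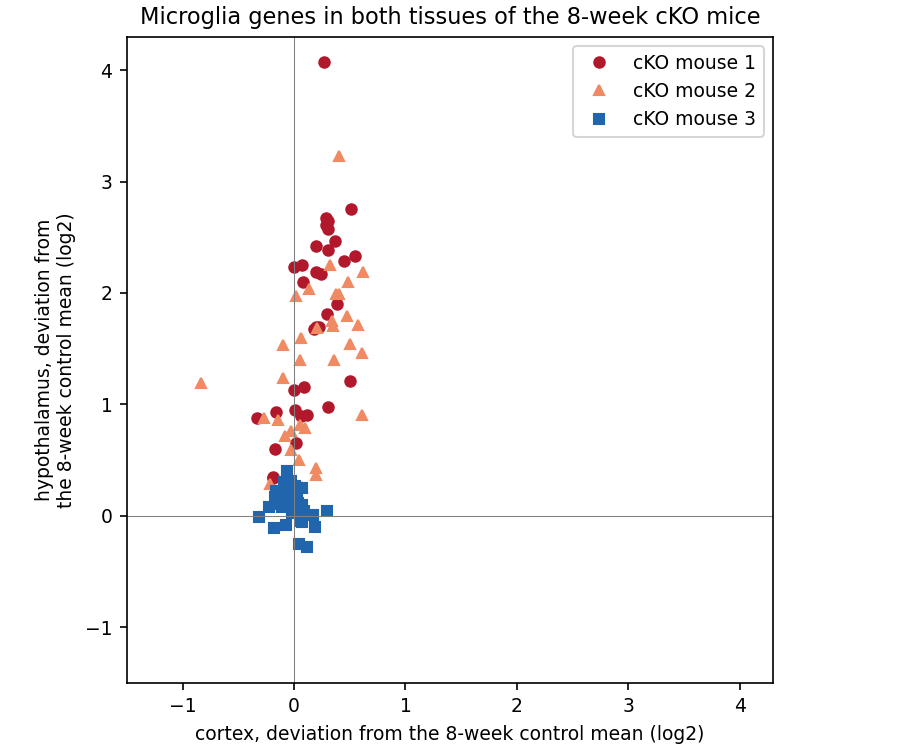
Deviation of each microglia gene from the mean of the 8-week controls in the hypothalamus (vertical, log2) and cortex (horizontal, log2) of the same cKO mouse at 8 weeks, one point per gene and mouse. Points of mice 1 and 2 rise to 4.07 in the hypothalamus and do not exceed 0.62 in the cortex, and those of mouse 3 lie between -0.28 and 0.40 in the hypothalamus.

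In the cortex at 4 weeks, 3 of 34 microglia genes rose in cKO mice, a share near the 10.1% of all genes called in either direction. P2ry6 was at 5.85, 5.77 and 5.68 in cKO mice and at 5.27, 4.999 and 5.25 in controls (difference 0.59, SE 0.12, adjusted p = 0.0649). Cd53 was at 7.13, 7.39 and 7.15 in cKO mice and at 6.74, 6.83 and 6.94 in controls (difference 0.39, SE 0.10, adjusted p = 0.0953). Cd68 was at 6.79, 6.43 and 6.33 in cKO mice and at 6.00, 6.10 and 6.08 in controls (difference 0.46, SE 0.14, adjusted p = 0.125). These 3 genes had no overlap between groups, as had 6 of the 34 (18.3% of all genes), and 8 of the 34 were below an unadjusted p of 0.05 (19.5% of all genes were higher at that level). The median was 0.20, against 0.12 over all genes, and it was 0.06 after centring the arrays on their medians, which left 0 calls. Leaving out control mouse 3 or cKO mouse 3 of 4 weeks gave 21 and 11 calls, and leaving out any other of the 6 arrays gave 0. The counts over all genes for these omissions are not given here.

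Markers of other cells moved in the same cortex arrays. Of 14 leptomeningeal genes, 10 rose, with a median difference of 0.75, and of 9 genes of border-associated macrophages, the macrophages of meninges and vessels, 4 rose, with a median of 0.36. The leptomeningeal median deviation was 0.47, 0.43 and 0.36 in cKO mice, against -0.48, -0.34 and 0.04 in controls. Their part in the 3 calls was not tested. Between the times, 0 of 34 genes passed in cKO mice of 8 weeks against 4 weeks (1.29% of all genes). In control mice 0 passed (0%), and 0 for the difference of the differences (0.00741%). At an unadjusted p under 0.05, 1 was higher and 9 lower in cKO mice, where 3.08% of all genes were higher and 17.3% lower. At that level 1 was lower in control mice (1.92% of all genes). For the difference of the differences 1 was higher and 2 lower (2.25% and 7.89% of all genes).

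In the arrays labelled hippocampus, from other mice, no microglia gene passed as higher in cKO mice. At 8 weeks 26 of 34 genes were lower and 8 higher, with a median of -0.11, and at 4 weeks 30 were lower and 4 higher, with a median of -0.30. Without cKO replicate 1 of 8 weeks, the array that stood apart in its tissue markers, 31 were lower and 3 higher at 8 weeks, with a median of -0.15, and 0 passed at either time (1 lower at an unadjusted p under 0.05 at 8 weeks). By limma 0 passed at either time with all 12 arrays too (0% of 14158 genes). At 8 weeks 0 had an unadjusted p under 0.05, and at 4 weeks 2 did, Cx3cr1 (-0.37) and Ptprc (-0.61), both lower, where 2.23% of all genes were lower at that level. The 4-week difference came with 1 control array: the median deviation was -0.16, -0.11 and -0.05 in cKO mice, against -0.12, 0.64 and -0.08 in controls, and control mouse 2 was the highest control for 33 of the 35 genes. Cd52 was at 6.14, 6.32 and 6.23 in cKO mice, against 6.46, 8.60 and 6.37 in controls. At 8 weeks control mouse 3 stood at 0.33, the highest array of that time, with Cd52 at 7.64. High levels of the set thus occurred in single control arrays too. The leptomeningeal median deviation at 4 weeks was -0.19, 0.29 and -0.67 in cKO mice, against 0.59, -0.04 and 0.44 in controls, so that control mouse 2 was not high in these genes, and their part in the difference was not tested. By limma 0 passed between the times in cKO mice, in control mice or for the difference of the differences, where 0% of all genes passed in each. At an unadjusted p under 0.05, 1 was lower in cKO mice (3.52% of all genes) and 0 differed in control mice. For the difference of the differences 1 was higher (2.3% of all genes). Without cKO replicate 1 of 8 weeks 0 members passed in these comparisons as well.

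The hypothalamus and the arrays labelled hippocampus were also compared in their 8-week differences. The hypothalamic difference was the greater for all 34 genes, by 0.03 (P2ry12) to 3.01 (Cd52). These sizes include cKO replicate 1 labelled hippocampus, in which P2ry12 was at 7.51, against 6.98 and 6.86 in cKO replicates 2 and 3. By limma 0 passed, where 0.0497% of all genes did, and 28 had an unadjusted p under 0.05, where 4.04% of all genes were higher at that level. The lowest adjusted p was 0.171, and 13 of the 34 passed when each array was centred on its median. Without hypothalamus cKO mouse 3 of 8 weeks 28 passed, and without cKO replicate 1 of 8 weeks labelled hippocampus 0 passed. Without control mouse 2 of 4 weeks labelled hippocampus, the array with the high microglia values, 17 passed. That 4-week array enters the 8-week comparison only through the spread pooled over all groups, not through the difference. The counts over all genes under the centring and the omissions are not given here, so these counts do not single out the microglia genes.

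The microglia genes varied together over the 12 hypothalamus arrays. For 29 of the 35, Pearson's r with the median of the other members was at least 0.9, a description over 12 arrays that share 2 high mice. The lowest were P2ry12 (0.37), Fcgr2b (0.68) and Tmem119 (0.88). Outside the list, 272 of 15482 genes (1.76%) had an r of at least 0.9. The 10 genes most like the set were H2-D1, Irgm1, Rtp4, Gbp3, Pycard, Cd84, Clec7a, Grn, Lgals3bp and Fcgr1, with r between 0.990 and 0.997. Among them Clec7a, the beta-glucan receptor dectin-1, was at 9.70, 9.18 and 5.62 in cKO mice and at 5.56, 4.998 and 5.23 in controls.

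Genes of antigen presentation, of the interferon response and of disease-associated microglia were measured in the same arrays, in bulk tissue that does not show which cells express them. Of 13 genes of antigen presentation and interferon response, 13 were higher in cKO hypothalami at 8 weeks and 0 passed the FDR, with a median of 1.45 and an unadjusted p under 0.05 for all 13. Their median deviation was 2.28, 1.23 and 0.08 in cKO mice, against -0.06, -0.61 and -0.25 in controls. The MHC class II genes differed from that order. H2-Aa, an MHC class II alpha chain, was at 10.79, 8.67 and 9.69 in cKO mice 1, 2 and 3, against 8.40, 7.01 and 8.94 in controls, so that cKO mouse 3 was above cKO mouse 2 and the groups overlapped. Ifitm3, an antiviral membrane protein, differed by 1.28 (SE 0.24), Bst2, the tetherin that holds virus particles at the cell surface, by 1.51 and B2m, the light chain of MHC class I, by 1.32. Of 17 genes that mark disease-associated microglia, 16 were higher, 13 of them at an unadjusted p under 0.05, with a median of 0.80. The largest difference of all 15517 genes, 3.49 (SE 1.03, adjusted p = 0.398), was that of Cst7, a cystatin of this set. Cst7 was at 9.68 and 8.32 in cKO mice 1 and 2, and between 3.58 and 4.15 in every other hypothalamus array. Those other values lay below the limit set on the mean, so that cKO mice 1 and 2 alone brought Cst7 among the genes tested. Lyz2, lysozyme M, differed by 1.51 (SE 0.29), and Apoe, the lipid carrier, by 0.41. In the arrays labelled hippocampus these lists were highest in single control arrays. The antigen presentation and interferon median deviation was 0.78 in control mouse 2 of 4 weeks and 0.60 in control mouse 3 of 8 weeks. That of the disease-associated genes was 0.37 and 0.19 in these control arrays.

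Ligands and partners of the members differed less. Of 22 measured, 17 were higher and 8 had an unadjusted p under 0.05, with a median of 0.17. Tgfbr1, a TGF-beta receptor, differed by 0.64, Cebpa, a myeloid transcription factor, by 0.59 and C3ar1, the receptor of complement fragment C3a, by 0.89. Csf1, the ligand of Csf1r, differed by 0.35, whereas Il34, its other ligand, and Cx3cl1, the ligand of Cx3cr1, differed by -0.0050 and -0.03, with SEs of 0.10 and 0.07.

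Of 7 inflammatory cytokine genes, 7 were higher and 5 had an unadjusted p under 0.05. Ccl4 differed by 0.76, Cxcl10, an interferon-induced chemokine, by 2.89 and Ccl5 by 1.87, whereas Tnf differed by 0.02. Without cKO mouse 3 of 8 weeks, a setting chosen after seeing the data for these lists, 10 of the 13 antigen presentation and interferon genes, 13 of the 17 disease-associated genes, 4 of the 7 cytokine genes and 8 of the 22 partners passed as higher. Among the lists of other cells, described next, 3 of 11 astrocyte genes and 1 of 3 monocyte genes passed as higher and 1 of 12 neuronal genes as lower in that setting, and 0 passed among border macrophage, leptomeningeal, oligodendrocyte, lymphocyte and neutrophil genes.

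Other leukocytes and macrophages could also express some of the 35 genes, and their own markers were measured in the same hypothalami. Of 9 border macrophage genes, 1 (Ms4a7, 0.42) had an unadjusted p under 0.05, and the median was 0.07. Their median deviation was -0.09, -0.15 and 0.54 in cKO mice 1, 2 and 3, against 0.10, -0.25 and 0.14 in controls, so that cKO mouse 3, with the lowest microglia genes of the 3, had the highest value. Of 6 neutrophil genes 0 reached that level, of 3 monocyte genes 1 (Ms4a4c, 0.31), and Ccr2, which defines monocytes, differed by 0.03 (SE 0.14). Ccr2 lay between 4.62 and 5.17 in the 12 hypothalamus arrays, close to the limit of 4.5, where a change is hard to detect. Of 7 lymphocyte genes, Nkg7 (0.30) and Cd2 (0.24) were higher and Cd79a (-0.31) lower at an unadjusted p under 0.05. Cd3e differed by 0.02. Over these 4 lists the largest difference was 0.50 (Plac8, a monocyte gene), against a median of 1.14 in the microglia genes. These sizes are not alike in kind, because other markers of the lists also lay close to 4.5. Mmp8, a neutrophil gene, was between 4.07 and 4.84 in the hypothalamus arrays and Nkg7 between 4.63 and 5.22. Only 3 of 6 monocyte and 7 of 12 lymphocyte genes listed passed the limit. The part of such cells in the microglia values was not tested.

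The leptomeningeal genes varied between dissections: their median deviation was -0.46, -0.63 and 1.64 in cKO mice 1, 2 and 3, against 0.23, -0.62 and 1.06 in controls. Of 14, 0 had an unadjusted p under 0.05. cKO mouse 3 thus combined the highest leptomeningeal with the lowest microglial level of its group, and the part of the dissection in that was not tested. Astrocyte genes were higher in 11 of 11, 3 of them at an unadjusted p under 0.05, with a median of 0.15, and Gfap, the filament protein of reactive astrocytes, differed by 1.11 (SE 0.26, adjusted p = 0.384). Neuronal genes had a median of -0.05 and oligodendrocyte genes of -0.12, and 0 of 12 and 0 of 7 had an unadjusted p under 0.05. Of 10 cell division genes, 2 (Ccnb2, 0.24, and Mcm5, 0.25) were below it. The actin 3′ minus 5′ difference, a sign of RNA quality, was 1.18, 1.24 and 1.20 in cKO mice and 1.32, 1.59 and 1.46 in controls. It moved with the groups and not with the split among the cKO mice, and its part in the microglia values was not tested.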

How the data were processed

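RNA labelled cortex, hypothalamus and hippocampus was hybridised to Affymetrix mouse expression arrays, 3 animals per group. The deposited values are log2 intensities that the authors obtained with RMA, separately for each tissue, for 45101 probe sets. The platform table paired 34945 of these with a single gene symbol, and 932 that carry several symbols, 9160 that it does not name and 64 control probe sets were left out. MAS5 present calls, which the methods used as a filter, were not used here, and a mean of at least 4.5 over the 12 arrays of a tissue took their place. Each tissue was fitted in limma 3.58.1 (R 4.3.3) with its 4 groups and without a block. P values were adjusted by Benjamini and Hochberg's method over all tested genes, with the FDR of 15% of the methods, and the tissue comparison used duplicateCorrelation on the animal (0.155). The fit was tested on simulated data. Within a tissue each array is a separate animal, and the number of arrays limits the precision.

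The 35 members, 8 role groups and other lists were chosen with earlier results of these data known. Any member may be named, and every array is given for the member of lowest p in each role group, for the largest and smallest hypothalamic difference at 8 weeks and for members called between cKO and control mice. P2ry12 was added after its values were seen, as was Cx3cr1 in the cortex at 4 weeks. Up to 3 genes of lowest p per other list and the 10 most similar genes were named as well, and other genes of these lists (Tnf, Il34, Cx3cl1, Csf1, Cd3e, Cst7 and H2-Aa) and the tissue markers were chosen after their values were seen. Like-numbered cKO and control arrays correlated at 0.196, 0.243 and 0.284 (deviations from group means) in the hypothalamus at 8 weeks, and at 0.157, 0.0104 and 0.244 at 4 weeks. At 8 weeks these mice carry neighbouring animal numbers, but no label says that a number marks a shared litter or day. Alternatives were other filters, probe sets, scalings, variance models, blocks, thresholds and the omission of each array. No scan date was used here. The 11 members with more than 1 probe set had 21 further ones, 20 of which also had a positive hypothalamic difference at 8 weeks. Among those with a mean of at least 4.5, a probe set of Laptm5 differed by 0.05, another of Trem2 by 0.08 and another of Slco2b1 by -0.02.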

Additional observations from a re-analysis of the deposited data

How the results depend on the processing

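The 8-week hypothalamic median of the microglia genes was between 0.76 and 1.65 when each array was left out, and between 1.11 and 1.27 under the other settings. The number of microglia genes called there was 0 to 33 over the omissions, 31 with array weights and 0 under the others. For the cKO mice of 8 against 4 weeks it was 0 to 33 over the omissions, 1 with an intensity trend, 29 with array weights, 5 with the replicate block and 2 with the animal-number range as a block, and for the difference between times 0 to 30 over the omissions. The 4-week hypothalamic median was 0.062 with the animal-number range as a block.

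In the cortex at 4 weeks the 3 calls became 0 at an FDR of 5%, 0 with arrays centred on the median (median difference 0.062), 1 with centring on the 75th percentile, 27 with array weights, 0 with only the 6 arrays compared, 1 with the replicate block, and 0 to 21 over the omissions (21 without control mouse 3 and 11 without cKO mouse 3 of 4 weeks). Array weights called 14 for the difference between times and 13 for the cKO mice of 8 against 4 weeks, which ranged over 0 to 1 and 0 to 10 over the omissions (9 without cKO mouse 2 of 8 weeks, 10 without control mouse 3 and 8 without cKO mouse 3 of 4 weeks). The hypothalamus minus cortex count was 0 to 27, and the count for the hypothalamus minus the arrays labelled hippocampus 0 to 28 over the omissions and 13 with either centring. The omissions kept the animal correlation of all arrays. The cause of these changes was not tested. In this section the counts of microglia genes stand without those over all genes, so they do not single out the microglia genes.

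Over the omissions the median crossed 0 in the hypothalamus at 4 weeks (-0.09 to 0.02) and in the arrays labelled hippocampus at 8 weeks (-0.20 to 0.04). Of the single genes recomputed, P2ry12 alone changed sign, in the hypothalamus at 8 weeks, with -0.062 without control mouse 2, and its highest value over the omissions was 0.303. With the replicate block the lowest adjusted p of the microglia genes in the 8-week hypothalamus was 0.296, so pairing changed no other count than those given. Like-numbered arrays of the cortex, at 8 weeks from the same mice as the hypothalamus, and those labelled hippocampus correlated between -0.06 and 0.08. The number of arrays limits all counts.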
